A study of Arabidopsis thaliana with 6 samples.

Results

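The small RNAs of Arabidopsis thaliana seedlings lacking the poly(ADP-ribose) polymerases PARP1 and PARP2 were compared with those of wild-type seedlings, with and without the bacterial peptide flg22. The comparison used 4 of the 6 libraries of the series: parp1parp2 and wild type (WT), each untreated and each after flg22, so that genotype had 2 libraries a side and treatment entered as a covariate. Of the 679 miRNA-locus intervals with read counts, 182 had 10 or more counts in at least 2 of these 4 libraries. Intervals with identical counts in all 6 libraries carried the same mature sequence and were taken once, which left 131 distinct rows, 90 mature strands and 41 star strands (the strand opposite the mature miRNA in the precursor duplex). A further 127 distinct rows had counts but did not reach this minimum.

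All seedlings were of the Col-0 ecotype, were 10 days old, and had been moved to water the day before treatment. The flg22 groups received 100 nM flg22, a flagellin peptide recognised by the plant receptor kinase FLS2, and the remaining libraries came from the poly(ADP-ribose) glycohydrolase mutant parg1-1. The labels give no replicate number and 1 library per genotype and treatment, so the spread available to a test was that between the untreated and flg22 libraries of a genotype after a shared treatment term. In the sources used here, the alleles behind parp1parp2, the number of seedlings per library and the length of the flg22 treatment are not given. Intervals cover miRNA loci and a few TAS loci, so no transcript of PARP1 or PARP2 is measured and the genotype labels could not be checked from these counts.

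PARP enzymes attach chains of ADP-ribose to proteins, and PARG enzymes take them off; both act in the DNA damage response and in plant immunity. Plant miRNAs are cut from folded precursors by DICER-LIKE1, with helper proteins that include DAWDLE, and the mature strand is loaded into an ARGONAUTE protein that silences matching mRNAs. The star strand is usually degraded. The level of a miRNA therefore reflects transcription, processing, loading and decay together.

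The libraries held 284814 counts (WT untreated), 408805 (WT with flg22), 278906 (parp1parp2 untreated) and 247508 (parp1parp2 with flg22) over all intervals, where reads of a sequence shared by several loci are counted at each. Taken once per distinct row, the totals were 142289, 187713, 126393 and 119791. The 5 most counted rows took 59.2%, 57.3%, 56.8% and 57.5% of each library. Levels below are in CPM, the usual read-count unit that brings every library to the same total over the tested rows, after TMM scaling (trimmed mean of M-values), and so are shares of the miRNA reads and not amounts per cell. Fewer cells of a type and less RNA per cell cannot be told apart in whole seedlings. A floor of 3 counts corresponded to 21, 15.7, 24.8 and 24.6 CPM in these libraries.

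The miR845 family carried the clearest difference between the genotypes, and its sequences are shown because of what they share. Plant miR845 is known to match the primer binding site of LTR retrotransposons, where the 3′ end of the initiator methionine tRNA anneals to start reverse transcription. Both members lie on the minus strand of chromosome 4 (TAIR10.1), in no protein-coding gene: miR845a at chr4:12217457-12217477 in the locus AT4G23387 and miR845b at chr4:12214086-12214107 in AT4G23375, with 3349 bases between them. Capitals below mark the seed, bases 2 to 8 from the 5′ end.
miR845a: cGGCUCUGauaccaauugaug
miR845a-star: uCGAUUGCugucagagccacg
miR845b: uCGCUCUGauaccaaauugaug

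The annotated precursor of miR845a spans chr4:12217406-12217568 on the minus strand, 163 nucleotides, and is printed with the star strand and then the mature strand in capitals. It shows that miR845a is cut from the 3′ arm.
precursor of miR845a: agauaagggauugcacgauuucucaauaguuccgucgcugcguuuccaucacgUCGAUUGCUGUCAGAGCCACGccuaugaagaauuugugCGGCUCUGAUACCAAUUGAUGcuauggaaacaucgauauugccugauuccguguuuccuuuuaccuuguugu

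The longest stretch that miR845a shares with the 3′ end of an annotated tRNA gene plus its added CCA was 13 bases, at positions 2 to 14. For miR845b it was 12 bases, at positions 3 to 14. Both stretches were found at the same number of genes, 8 of 625 tRNA genes, all annotated tRNA-Met. Among the 131 rows tested, 2 shared 10 or more bases with a tRNA 3′ end, miR845a and miR829.1, and the latter also shared 12. Capitals below mark the shared stretch.
miR845a: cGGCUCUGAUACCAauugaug
miR845b: ucGCUCUGAUACCAaauugaug
miR829.1: aGCUCUGAUACCAaaugauggaau

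miR845a was the only row that passed the test, and it was lower in parp1parp2. Its counts were 505 in untreated WT and 891 in flg22-treated WT, against 45 and 30 in the corresponding parp1parp2 libraries. On the CPM scale these were 3541 and 4673 against 372 and 246. Both mutant libraries were far below both WT libraries, with and without flg22. The log2 fold change of parp1parp2 over WT was −3.73 ± 0.40 (SE, 2 libraries a side), with an adjusted p of 2.41e-14 in edgeR's quasi-likelihood test with Benjamini-Hochberg adjustment.

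That p-value rests on a spread that edgeR took from the rows together and not from this row's own scatter. The fit had infinite prior degrees of freedom, with 1 residual degree of freedom per row. With all 6 libraries in the fit the log2 fold change was −3.67 and edgeR's adjusted p was 0.00793. When the intervals were fitted as deposited, with shared sequences repeated, the log2 fold change was −3.74 and the adjusted p was 0.397. Across the processing alternatives the log2 fold change lay between −4.10 and −3.36, and the row was called in 11 of 12 settings.

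Pooled over treatments, miR845a was 13.6-fold lower in parp1parp2 (exact 95% interval of the counts 10.8 to 17.4, counting error only). In the untreated pair alone the log2 ratio was −3.25 (interval −3.72 to −2.81), and in the flg22 pair it was −4.25 (−4.83 to −3.73). The difference between the pairs did not pass its own test: the term for a separate flg22 response of parp1parp2, fitted over 6 libraries, was −0.81 ± 0.48 (edgeR adjusted p = 0.529). Ordered by CPM among the 131 rows, miR845a ranked 28 and 25 in the WT libraries and 60 and 67 in the parp1parp2 libraries. It thus stood among the more abundant rows in WT and near the middle in parp1parp2.

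The other strand of the duplex was low in the same libraries. miR845a-star had 10 and 20 counts in WT and 1 and 0 in parp1parp2, or 70.1 and 105 CPM against 8.27 and 0. Pooled, it was 21.9-fold lower in parp1parp2, with a wide counting interval of 3.64 to 892. Its fitted log2 fold change was −4.14 ± 1.90 and did not pass edgeR's quasi-likelihood test (adjusted p = 0.542). The star strand made up 1.94% and 2.2% of the locus's counts in WT and 2.17% and 0% in parp1parp2, so at these counts no change in the balance of the strands was detectable.

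miR845b did not reach the count minimum. It had 8 and 9 counts in WT and 0 in each parp1parp2 library. With 3 counts over the parp1parp2 group in place of 0, it would be 4.13-fold lower in parp1parp2. The exact 95% interval of the counts begins at 3.01-fold. It did not pass edgeR's test when the minimum was dropped (adjusted p = 0.338). Its star strand had no count in any library. Summed over the family, the counts were 523 and 920 in WT and 46 and 30 in parp1parp2.

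miR829.1, which carries the tRNA-Met stretch of miR845b but lies in another family, did not follow this pattern in its values. Its counts were 19 and 42 in WT and 23 and 27 in parp1parp2, and its log2 fold change was 0.24 ± 0.33. The difference between it and miR845a was not tested.

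The parg1-1 libraries lay between the genotypes for this family. On CPM scaled over 6 libraries, and with the untreated library first, miR845a had 3310 and 4450 in WT and 701 and 836 in parg1-1, against 347 and 253 in parp1parp2. miR845a-star had 3 and 1 counts in parg1-1, and miR845b had 1 and 1. The 2 WT libraries serve as controls for parg1-1 as well, so a property of the WT libraries and an effect shared by the mutants cannot be told apart here.

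**Figure D1:**
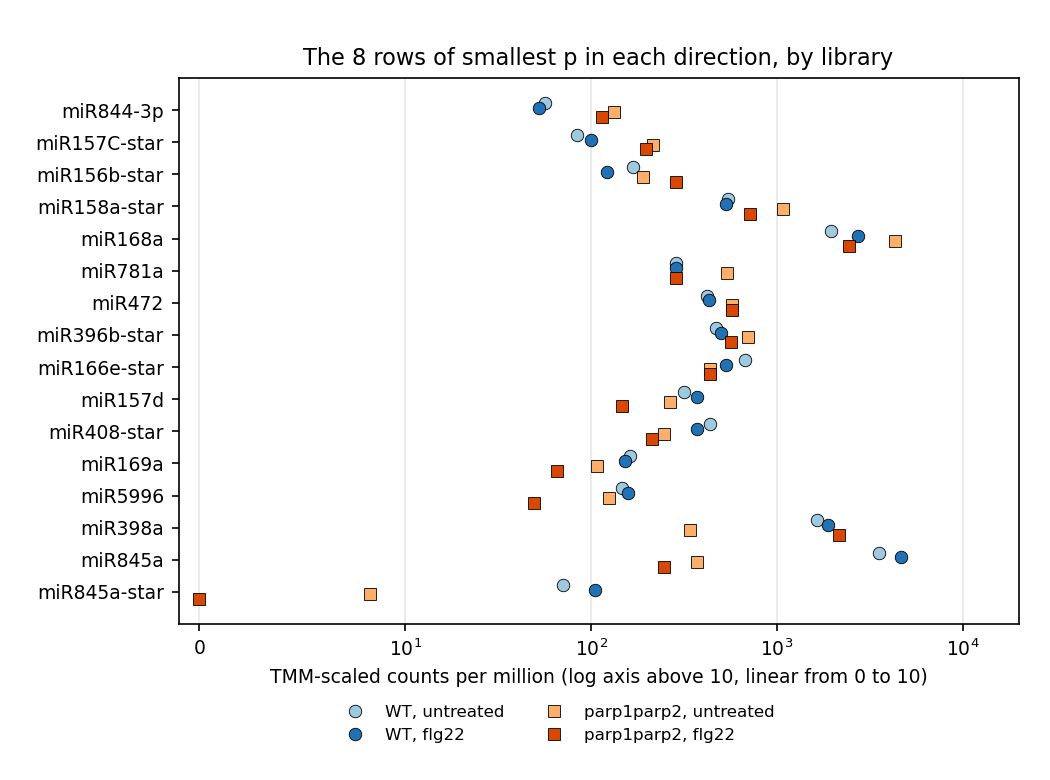
TMM-scaled CPM of the 8 rows of smallest p in each direction, on an axis that is logarithmic above 10 and linear from 0 to 10; circles are WT and squares parp1parp2, with the flg22 libraries in the darker shade. For miR845a the parp1parp2 libraries lie at 372 and 246 and the WT libraries at 3541 and 4673, and miR845a-star is likewise lower (70.1 and 105 against 8.27 and 0); the genotypes lie closer together or overlap in the other rows.

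Among the other 130 rows no difference passed the test. The call rate was 0.763% (1 of 131 rows) for lower and 0% for higher in edgeR's quasi-likelihood test. At an unadjusted p under 0.05 edgeR gave 8 rows, 3 higher and 5 lower, and DESeq2 called 1 row, miR845a, which was also its only row at that unadjusted level. The precision was uneven: the median SE of a log2 fold change was 0.35, with a range of 0.26 to 1.90. In all, 125 of 131 rows had fold changes within 2-fold. Among the 34 rows with 1000 or more counts, those other than miR845a lay between −0.51 and 0.50.

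Both parp1parp2 libraries lay above both WT libraries in 19 rows (14.5%) and below them in 33 rows (25.2%), 52 rows in all (39.7%). With DESeq2 size factors the split was 22 above and 26 below, and at a minimum of 50 counts, which 65 rows reached, it was 12 and 14. The excess of lower rows thus depends on these settings. With 2 libraries against 2, an exact two-sided permutation test cannot go below p = 0.333, so these counts describe the libraries and are not calls. The median log2 fold change over the 131 rows was −0.02.

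The rows with the next smallest p-values included star strands of loci whose mature strand was abundant. The duplex strands of 2 such loci are shown, with seeds in capitals, because the star row is set beside its mature row for each. miR157C lies at chr3:6244673-6244693 with its star at chr3:6244526-6244547, both on the minus strand of TAIR10.1. miR408 lies at chr2:19319933-19319953 with its star at chr2:19319867-19319887, on the plus strand, and overlaps an exon of AT2G47020 on the other strand, outside the coding part.
miR157C: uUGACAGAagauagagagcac
miR157C-star: gCUCUCUAuacuucugucacca
miR408: aUGCACUGccucuucccuggc
miR408-star: cAGGGAACaagcagagcaugg

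The miR157 and miR156 families target SPL transcription factors and hold plants in the juvenile phase. miR157C-star was at 84.1 and 99.6 CPM in WT and 215 and 197 in parp1parp2, from 12, 19, 26 and 24 counts. The groups did not overlap, but the log2 fold change of 1.15 ± 0.40 did not pass (edgeR adjusted p = 0.229). The mature strand, which miR157a, miR157b and miR157C share, was at 13975 and 13369 CPM in WT and 10633 and 8650 in parp1parp2. Its log2 fold change was −0.51 ± 0.34, opposite in sign to that of the star strand and also without overlap. It did not pass the test either.

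miR408 targets plantacyanin and laccases, copper proteins. Its star strand was at 435 and 372 CPM in WT and 248 and 213 in parp1parp2. The log2 fold change was −0.81 ± 0.28 (edgeR adjusted p = 0.229), with no overlap of the groups. The mature strand had a log2 fold change of 0.07 ± 0.31, with overlapping groups, and the difference between the strands was not tested.

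miR158a-star was at 547 and 535 CPM in WT and 1075 and 713 in parp1parp2 (log2 fold change 0.69 ± 0.30, edgeR adjusted p = 0.446). In the 6-library fit its log2 fold change was 0.11 without untreated parp1parp2 and 1.31 without flg22-treated parp1parp2. The mature miR158a, one of the most abundant rows, had a log2 fold change of 0.19 ± 0.28. miR156b-star had 24 and 23 counts in WT and 23 and 35 in the smaller parp1parp2 libraries (0.73 ± 0.34, edgeR adjusted p = 0.542), against 0.22 ± 0.30 for the mature miR156a sequence. In these loci the star strand had the larger point estimate. The star rows were named for their small p, so the choice itself favours this. None of the values passed the test.

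The remaining rows of small p were of low or moderate level. miR157d, which is miR157a shifted by 1 base and so may share its reads, was at 316 and 372 CPM in WT and 265 and 147 in parp1parp2 (log2 fold change −0.78 ± 0.29, edgeR adjusted p = 0.246). Its log2 ratio was −1.34 (interval −2.17 to −0.57) in the flg22 pair, where it was apart by the rule given below, and −0.25 in the untreated pair. miR5996 had 21 and 30 counts in WT and 15 and 6 in parp1parp2, with a log2 fold change of −0.88 ± 0.49. Both rows lay below WT without overlap, mainly through the flg22-treated parp1parp2 library.

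miR166e-star, from a family that targets HD-ZIP III leaf polarity factors, had 96 and 102 counts in WT and 53 in each parp1parp2 library (−0.46 ± 0.28). miR844-3p had 8 and 10 counts against 16 and 14 (1.17 ± 0.69). miR396b-star, from a family that targets growth-regulating factors, was at 470 and 503 CPM against 703 and 565 (0.37 ± 0.28). These 3 rows did not overlap between the genotypes, whereas miR781a did (0.45 ± 0.28), and none passed the test.

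The share of a locus's counts on the star strand does not depend on library scaling. It could be computed at 39 loci where both strands passed the minimum, of which 26 share a strand sequence with other loci and so are not all independent. The share was higher in both parp1parp2 libraries than in both WT libraries at 6 loci (15.4%) and lower in both at 7 loci (17.9%). There was thus no general shift of the star share in one direction.

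By ratio, the upward change was largest at miR157C among the 39 loci, where the star strand made up 0.599% and 0.74% of counts in WT and 1.98% and 2.22% in parp1parp2. The mature counts in this share belong to a sequence of 3 loci, miR157a, miR157b and miR157C, whereas the star counts come from 1 locus. At miR172b-3p, of a family that targets APETALA2-like factors, it made up 5.19% and 4.4% in WT and 9.71% and 12% in parp1parp2. These shares rest on 7 and 7 star counts in WT and 10 and 14 in parp1parp2. Their exact intervals overlapped between the genotypes (2.11 to 10.4 and 1.79 to 8.86 against 4.75 to 17.1 and 6.7 to 19.3). The mature counts at miR172b-3p belong to a sequence shared with miR172a, and the star counts to one shared with miR172e. The same star counts enter the share of miR172e, which was also higher in both parp1parp2 libraries. At miR158a the star share was 0.742% and 0.828% against 1.26% and 0.973%. Downward, the star share of miR408 was 2.12% and 1.37% in WT and 1% and 0.874% in parp1parp2. At miR162a, which targets DICER-LIKE1 mRNA, it was 0.678% and 0.699% against 0.481% and 0.522%. The star counts there were 17 and 28 in WT and 13 and 12 in parp1parp2, and the exact intervals overlapped between the genotypes. At miR158a and miR408 the intervals overlapped within the flg22 pair and not within the untreated pair, and at miR157C within neither. The parg1-1 shares were 1.2% and 2.59% at miR157C, 14.1% and 13.1% at miR172b-3p and 0.931% and 2.24% at miR158a. They were 0.778% and 0.845% at miR408 and 0.403% and 0.292% at miR162a. At each of these loci parg1-1 lay on the same side of WT as parp1parp2, so a property of the WT libraries and an effect shared by the mutants cannot be told apart. At miR393b, whose star strand is known to have a target of its own in immune secretion, the star strand held most counts of the locus in every library.

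**Figure D2:**
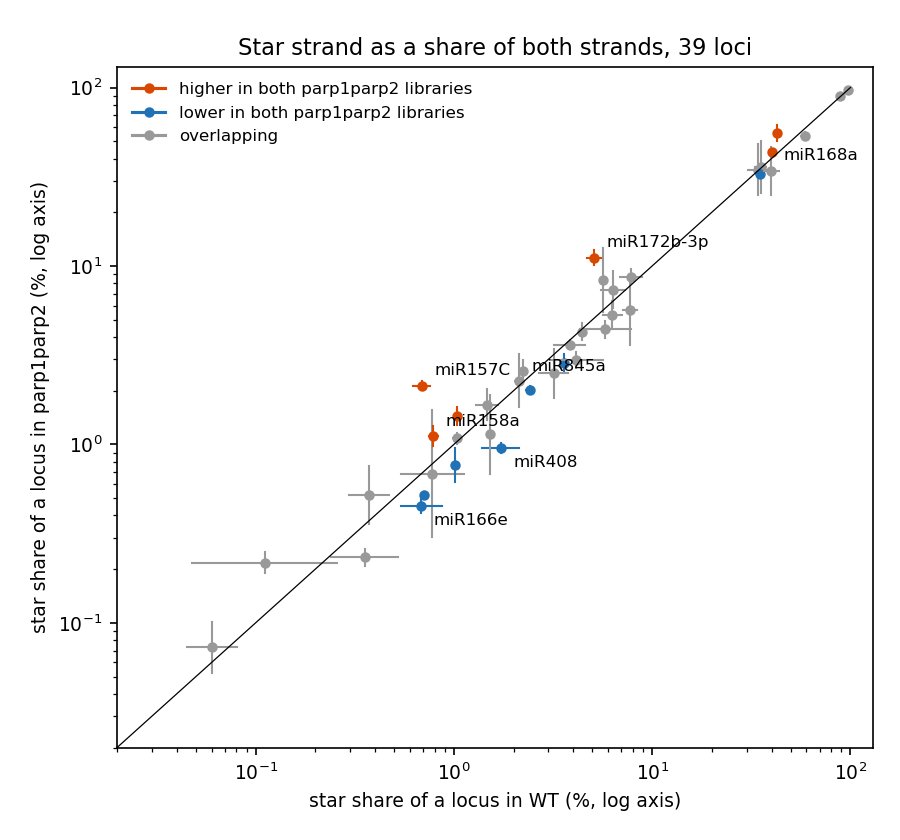
Star share of the 39 loci with both strands above the minimum, WT against parp1parp2, in percent on logarithmic axes; bars span the 2 libraries of a genotype, shares are drawn with a small added count, and the line marks equal shares. miR157C and miR172b-3p lie above the line and miR408 below it, while most loci lie close to it.

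The genotypes were also compared within each treatment, with 1 library a side. A row was taken as apart when the ratio was at least 2-fold, the higher library had 50 or more counts and the exact 95% interval, which covers counting error only, did not include 1. In the untreated pair 5 rows were apart (3.82%), 2 higher (1.53%) and 3 lower (2.29%) in parp1parp2. In the flg22 pair 4 rows were apart (3.05%), all lower. miR845a was the only row apart the same way in both pairs. The log2 ratios of the 2 pairs correlated across the 131 rows with Pearson's r = 0.142 and Spearman's rho = −0.0822, and 59 rows had the same sign. The rows are not independent replicates, and the pairs have no library in common. Without the 2 miR845 rows r was −0.238.

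**Figure D3:**
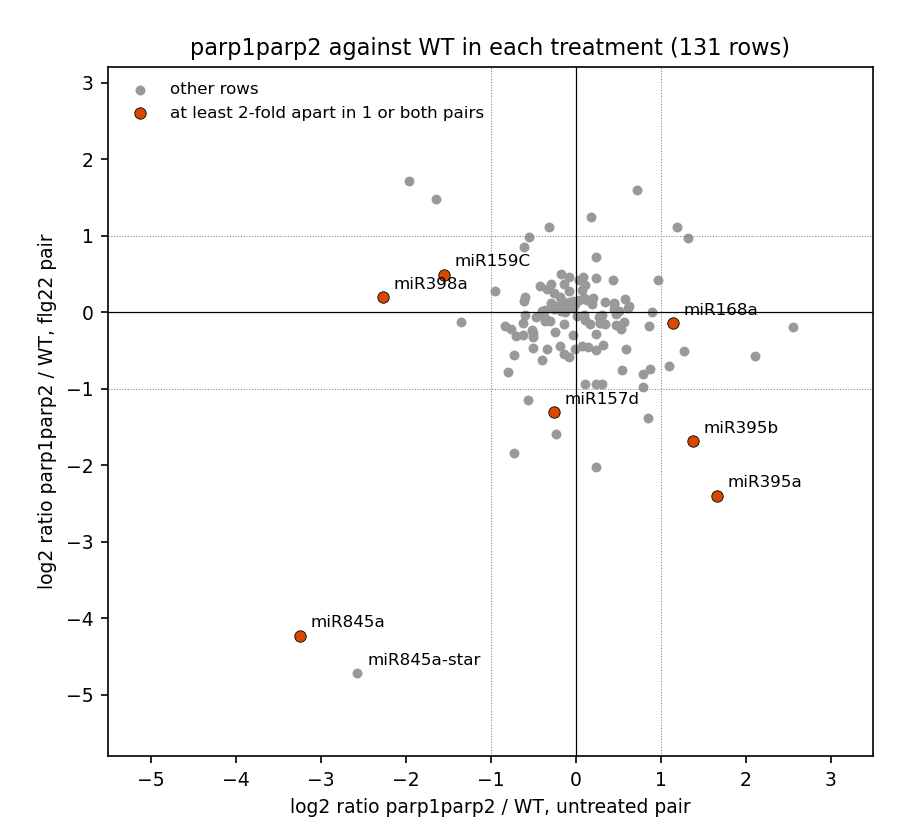
log2 ratio of parp1parp2 over WT in the untreated pair (horizontal) and in the flg22 pair (vertical) for 131 rows; orange points are apart in at least 1 pair. miR845a lies at −3.25 and −4.25, while miR395b is higher in the untreated pair (1.39) and lower in the flg22 pair (−1.70), and miR398a is apart in the untreated pair alone.

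Rows apart in 1 pair, or in both in opposite directions, included members that differ by a single base from a more abundant relative. They are shown with the differing base in capitals, since a sequencing error in the abundant relative can be counted as the rarer one. Counted from the 5′ end, the changes are G21U from miR398b to miR398a, U20C from miR159b to miR159C and G17A from miR395b to miR395a.
miR398b: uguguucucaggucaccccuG
miR398a: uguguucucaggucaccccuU
miR159b: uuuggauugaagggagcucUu
miR159C: uuuggauugaagggagcucCu
miR395b: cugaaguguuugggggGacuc
miR395a: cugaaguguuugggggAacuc

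miR395 targets ATP sulfurylases and a sulfate transporter and is induced by low sulfate. miR395b (chr1:9364540-9364560, plus strand, TAIR10.1) was at 435 and 1065 CPM in WT, untreated and flg22, and at 1141 and 328 in parp1parp2. Its log2 ratio was 1.39 (interval 0.95 to 1.85) in the untreated pair and −1.70 (−2.23 to −1.21) in the flg22 pair. The level was thus higher after flg22 in WT and lower after flg22 in parp1parp2. miR395a (chr1:9363206-9363226, minus strand) had 84.1 and 278 CPM in WT and 273 and 49.2 in parp1parp2. In WT and in parp1parp2 its direction after flg22 was the same as that of miR395b, at lower counts. In parg1-1 the directions differed, with 83 and 132 counts for miR395b and 16 and 11 for miR395a. Summed over the family, the counts were 83 and 291 in WT and 186 and 52 in parp1parp2.

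miR399 targets PHO2, a ubiquitin-conjugating enzyme of phosphate homeostasis. miR399b was at 1220 and 1600 CPM in WT and 2117 and 811 in parp1parp2, which is the order seen for miR395b. In parp1parp2, miR398a and miR159C were instead higher after flg22. miR398 targets copper/zinc superoxide dismutases, and miR398a (chr2:1041012-1041032, plus strand) was at 1641 and 1888 CPM in WT and 339 and 2163 in parp1parp2. Its log2 ratio was −2.28 (interval −2.79 to −1.79) in the untreated pair and 0.20 in the flg22 pair. miR159 targets MYB33 and MYB65, and miR159C (chr2:18994826-18994846, plus strand) was at 1360 and 1175 CPM in WT and 463 and 1647 in parp1parp2. In both cases 1 library, untreated parp1parp2, stood apart from the other 3.

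miR398a amounted to 0.774% and 0.982% of the counts of miR398b in WT, and to 0.203% and 1.21% in parp1parp2. In parg1-1 it amounted to 0.117% and 0.126%. miR159C amounted to 1.31% and 1.42% of miR159b in WT, 0.565% and 1.61% in parp1parp2, and 0.564% and 0.232% in parg1-1. The abundant relatives themselves moved little: the log2 fold change of parp1parp2 over WT was −0.22 ± 0.26 for miR398b and −0.02 ± 0.28 for miR159b. How much of the counts of miR398a and miR159C came from sequencing errors in these relatives was not tested. The share was much larger for miR395a, at 19.4% and 26.1% of miR395b in WT and 23.9% and 15.0% in parp1parp2. In parg1-1 miR395a amounted to 19.3% and 8.33% of miR395b.

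A separate flg22 response of parp1parp2 was tested as an interaction term over all 6 libraries. It passed in 3 rows upward (2.29%) and 3 downward (2.29%) in edgeR's quasi-likelihood test, again with infinite prior degrees of freedom and 1 residual degree of freedom. The downward rows were miR395b (−2.77 ± 0.47, adjusted p = 3.44e-06), miR399b (−1.84 ± 0.41, adjusted p = 0.000457) and miR395a (−3.19 ± 0.78, adjusted p = 0.00186). The upward rows were miR398a (2.59 ± 0.45, adjusted p = 3.5e-06), miR159C (2.39 ± 0.44, adjusted p = 1.12e-05) and miR2112-3p (3.38 ± 1.06, adjusted p = 0.0406). The term compares the response of parp1parp2 with that of WT and parg1-1 together, and each response rests on 1 library a side.

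**Figure D4:**
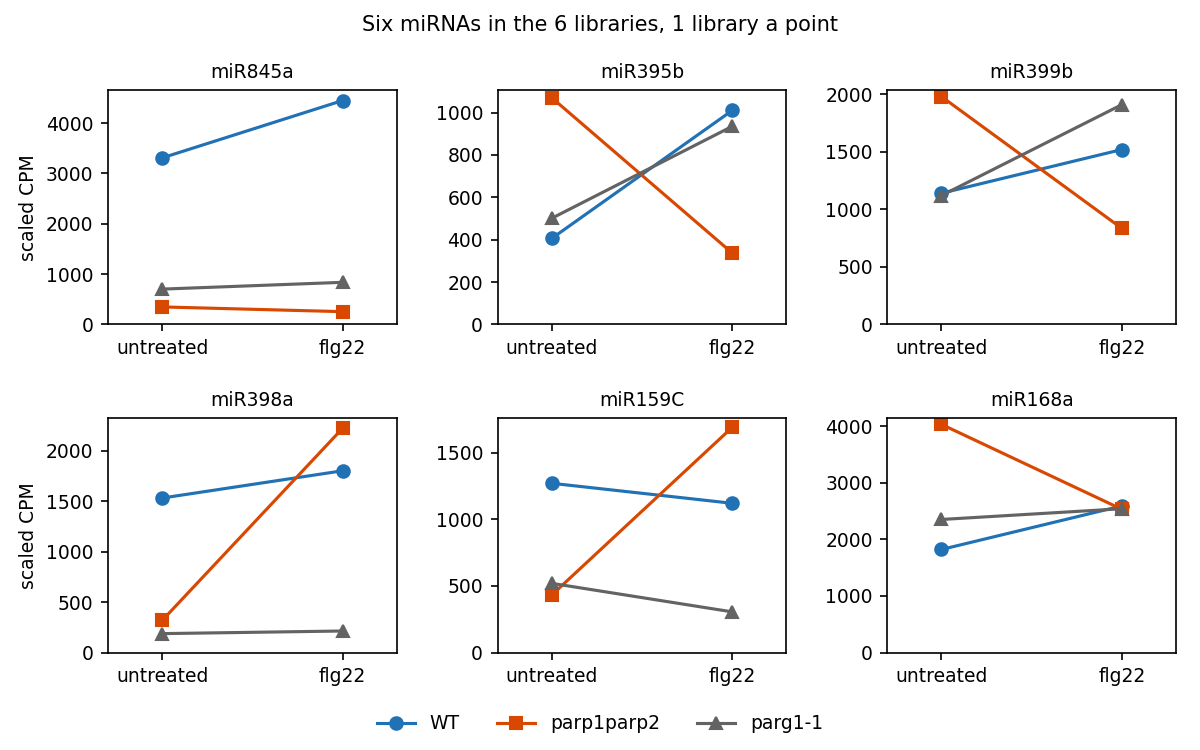
CPM scaled over 6 libraries of miR845a, miR395b, miR399b, miR398a, miR159C and miR168a in each library, by genotype and treatment. WT has 3310 and 4450 for miR845a, parg1-1 has 701 and 836, and parp1parp2 has 347 and 253, whereas miR398a in untreated parp1parp2 (317) is near the parg1-1 libraries (187 and 213).

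The miRNAs that act on the small-RNA machinery are of interest because they would respond to a change in it. miR162a was at 17460 and 20858 CPM in WT and 22233 and 18734 in parp1parp2 (log2 fold change 0.10 ± 0.32), with overlapping groups. miR168a, which targets ARGONAUTE1, was at 1949 and 2722 CPM in WT and 4316 and 2458 in parp1parp2 (0.50 ± 0.35, edgeR adjusted p = 0.999). It was apart in the untreated pair, at 1.15 (interval 0.93 to 1.36), and not in the flg22 pair, at −0.15. miR403, which targets ARGONAUTE2, had a log2 fold change of −0.11 ± 0.32. Of the 6 rows of this list none passed, and no row of miR838, which lies in the DICER-LIKE1 transcript, reached the minimum.

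In the genotype test the families linked to immunity had no call either. One of them is miR398, of which miR398a passed the interaction test above. In the genotype test its log2 fold change was −0.97 ± 0.37 (edgeR adjusted p = 0.246). miR393 targets the auxin receptors TIR1 and its AFB relatives and is known to rise on flg22. Its mature row had a log2 fold change of −0.01 ± 0.35, from 24 and 34 counts in WT and 22 and 20 in parp1parp2. Its most counted row, miR393b-star, is the opposite strand and had a log2 fold change of 0.07 ± 0.35. For miR160a and miR167a, which target auxin response factors, the values were 0.28 ± 0.35 and 0.34 ± 0.31. miR472, which targets NLR immune receptor mRNAs, was at 421 and 430 CPM in WT and 570 and 573 in parp1parp2. Its groups did not overlap, and its log2 fold change of 0.43 ± 0.28 did not pass (edgeR adjusted p = 0.999). miR825 had a log2 fold change of −0.14 ± 0.30, and no row of miR773 reached the minimum.

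Rows were further grouped by the targets their families are known for, and each list is given by its counts and median beside the −0.02 of all rows, of which 14.5% lay above WT and 25.2% below without overlap. In all lists but that of miR845 no row passed the test in either direction. The copper list (miR397, miR398, miR408 and miR857) had a median of −0.44 over 8 rows, with 5 below WT without overlap and 0 above, or 4 with DESeq2 size factors. The NF-Y list (miR169) had a median of −0.63 over 4 rows, 3 of them below without overlap. These miR169 rows were low: miR169a had 23 and 29 counts in WT and 13 and 8 in parp1parp2 (log2 fold change −0.88 ± 0.48).

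The organ growth list (miR164, miR170, miR171, miR394 and miR396) had a median of 0.15 over 11 rows, with 6 above WT without overlap and 1 below. In the phase change list (miR156, miR157 and miR172) the median was 0.22 over 12 rows, with 3 above and 3 below. Its 4 star rows had a median of 0.97 and its 8 mature rows a median of 0.01, from few counts on the star strands. Among these star rows are miR157C-star and miR156b-star, named above for their small p. Over all rows tested the median was −0.03 for the 41 star rows and −0.01 for the 90 mature rows. The difference between the strands of the phase change list was not tested, and none of its rows passed. The auxin list had a median of 0.00 over 13 rows, the MYB and TCP list 0.01 over 6 and the small-RNA machinery list 0.05 over 6. The 45 rows of less conserved families had a median of −0.05, with 4 above and 14 below without overlap, or 5 and 9 with DESeq2 size factors.

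**Figure D5:**
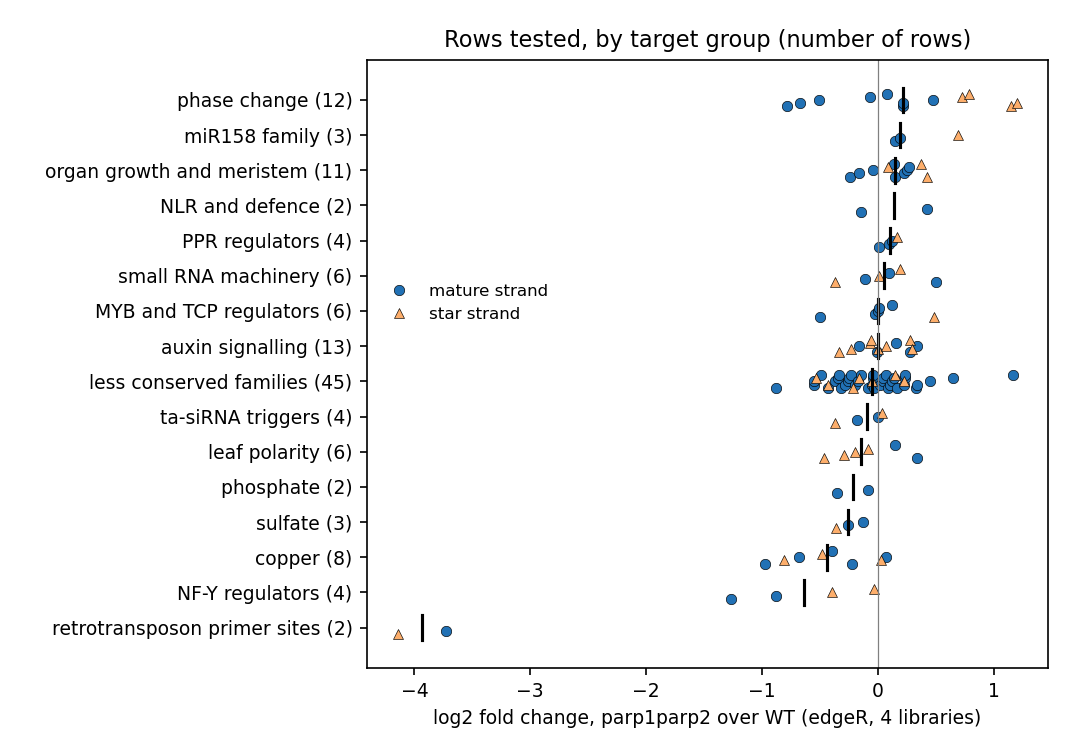
log2 fold change of parp1parp2 over WT for the 131 rows by target list, with the number of rows in brackets; circles are mature strands, triangles star strands and black bars list medians. The miR845 rows lie at −3.73 and −4.14, and the medians of the other lists lie between −0.63 and 0.22.

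The most counted rows set the scale of the comparison and did not separate by much. miR398b was at 212040 and 192175 CPM in WT and 166898 and 179111 in parp1parp2. miR158a was at 73214 and 64069 CPM in WT and 84284 and 72496 in parp1parp2. miR159a had a log2 fold change of 0.12 ± 0.27. None of these values passed the test.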

How the data were processed

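Small-RNA reads were counted per miRNA locus; the deposited values are raw read counts per interval, with no normalization, and the submitters' processing notes name Bowtie 0.12.8 and bedtools. The sources used here do not give how reads matching several loci were assigned; a sequence at several loci carried the same count at each. Intervals with identical counts in all 6 files were taken once, and rows with 10 or more counts in 2 or more of the 4 libraries were tested with edgeR 4.0.16 (quasi-likelihood, TMM, genotype plus treatment, Benjamini-Hochberg) in R 4.3.3; DESeq2 1.42.0 was an alternative. The SE is the absolute log2 fold change over the square root of F. Scripts were tested on simulated data. Library differences exceeded counting error (chi-square per degree of freedom 16.9 to 40.2); intervals and floors cover counting error only, and p-values reflect the scatter of these libraries, part of which may be technical. Sequences and coordinates come from RefSeq TAIR10.1; all 337 mature intervals coincided with its annotated mature miRNAs.

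Rows named were chosen among those with an adjusted p under 0.05, the 8 of smallest p in each direction, rows 2-fold apart in both pairs or in 1 (up to 5 a direction), their other strands, the 5 most counted and, for families linked to immunity, small-RNA machinery and retrotransposons, the most counted tested row. miR829.1, miR399b, miR2112-3p, miR172b-3p and the mature row of miR393 were added after values were seen. The members and lists were chosen with earlier results of these data known. Alternatives were other normalizations, count minimums, models and libraries, and each of the 4 libraries left out in turn.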

Additional observations from a re-analysis of the deposited data

Results flagged for a closer look

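The flg22 response of parp1parp2 differed from that of the other genotypes in 6 rows, by an interaction term tested with edgeR over 6 libraries. The response of parp1parp2 rests on 1 library a side, and the test on 1 residual degree of freedom with infinite prior degrees of freedom, so the difference has no replicate check. The log2 difference in response was −2.77 for miR395b, −1.84 for miR399b and −3.19 for miR395a. It was 2.59 for miR398a, 2.39 for miR159C and 3.38 for miR2112-3p. miR2112-3p had 11 and 5 counts in WT and 2 and 11 in parp1parp2. miR398a, miR159C and miR395a each differ by 1 base from a more abundant relative. In WT and parp1parp2, miR395a held 15.0% to 26.1% of its relative's counts, and miR398a and miR159C at most 1.61%.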

How the results depend on the processing

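No paired analysis was possible because the labels carry no replicate numbers and hold 1 library per genotype and treatment. miR845a remained the only call with all 6 libraries, without the treatment term, with DESeq2 size factors or DESeq2's test, and with no count minimum or one of 50. With the 182 intervals as deposited 0 passed, and 8 intervals were apart in the untreated pair and 8 in the flg22 pair. These intervals carried the same sequences as the rows apart in the main setting, with shared sequences repeated at their loci. Leaving out 1 of the 4 libraries at a time, possible in the 6-library fit alone, gave 1 to 3 calls, with miR845a among them each time (adjusted p 6.53e-08 to 0.046). The 3 were without flg22-treated parp1parp2, where miR398a (−2.34, adjusted p = 5.25e-05) and miR159C (−1.75, adjusted p = 0.00348) joined miR845a in edgeR. A minimum of 50 counts left 26 of 65 rows without overlap, a share much like the 52 of 131 in the main setting. A minimum of 100 counts left 2 rows apart in the flg22 pair. Of 35 rows recomputed, 14 changed sign in at least 1 setting, and no reversed value passed the test. Without untreated WT, the log2 fold change became 0.43 for miR159b, 0.14 for miR403, −0.02 for miR393b-star and 0.09 for miR159C. Without flg22-treated WT, it became −0.06 for miR156b-star, 0.55 for miR825, 1.39 for miR395a, 0.89 for miR395b, 0.38 for miR399b and −1.33 for miR2112-3p. Without untreated parp1parp2, it became 0.31 for miR398a, 0.21 for miR159b, −0.14 for miR162a, 0.06 for miR403, −0.02 for miR156a, −0.02 for miR408 and 0.71 for miR159C. Without flg22-treated parp1parp2, it became 0.10 for miR825, 1.03 for miR395a, 1.19 for miR395b, 0.81 for miR399b and −1.97 for miR2112-3p. With all 6 libraries it was 0.02 for miR159b and 0.08 for both miR395b and miR399b, and without the treatment term 0.05 for miR399b. miR159b was also 0.01 with DESeq2 size factors, 0.01 in DESeq2's test and 0.04 at a minimum of 50 counts, and miR2112-3p was −0.12 in DESeq2's test. The causes were not tested. Rows of few counts had SEs up to 1.90, so depth limits what they can show.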
